A study of Mus musculus with 16 samples.

Results

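The genes described here are a fixed list of the hypoxia response: the hypoxia-inducible factor (HIF) regulators, the glycolytic enzymes, the glycolysis regulators and other hypoxia targets. They were found by symbol in the deposited table, which held 35 of the 36 listed genes among 17951 genes. The missing entry was Adm, which the table does not list under that symbol. The 35 members comprised 8 HIF regulators, 17 glycolytic enzymes, 3 glycolysis regulators and 7 other hypoxia targets. Microglia, the resident macrophages of the brain, were sorted from mouse brain as live CD11b+ CD45+ CX3CR1+ cells and profiled by bulk RNA sequencing in 16 libraries. The wild-type group (WT) had 7 libraries from mice labelled 2 months old. The transgenic mice (TG) were of the 5xFAD line, labelled 6 months old, in which transgenes are driven in neurons by the Thy1 promoter and beta-amyloid (Aβ) plaques form. All mice received methoxy-X04 (Me-X04), a dye that binds Aβ, and TG microglia were sorted into dye-positive cells (TG Me-X04+, 4 libraries) and dye-negative cells (TG Me-X04-, 5 libraries). Age and genotype cannot be told apart between WT and TG by these labels, and the ages in the study's methods differ from them. TG libraries of the same number were taken to come from the same animal, a pairing that the main test did not use. The dye sort marks cells carrying Aβ without telling when or how they took it up.

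HIF is a pair of proteins, an oxygen-regulated alpha subunit such as Hif1a and the constant partner Arnt. When oxygen is present, prolyl hydroxylases of the Egln family mark the alpha subunit for destruction through the Vhl ubiquitin ligase, and Hif1an blocks its activity. Stable HIF binds short DNA motifs and raises transcription of glucose transporters, glycolytic enzymes, lactate dehydrogenase A and factors such as Vegfa. In macrophages and microglia the same programme is also engaged by inflammatory signals, when energy production shifts towards glycolysis. RNA levels do not report the protein stability through which HIF is mainly controlled.

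The values are log2 RPKM (reads scaled by gene length and library size), so levels can be compared between genes per length. Libraries held 15623664 to 27579017 reads over the listed genes. Mitochondrial genes took 12.6% to 31.3% of reads in WT, 20.6% to 44.8% in TG Me-X04- and 31.3% to 56.8% in TG Me-X04+. The libraries fell into 2 sets on the first principal component within groups, set A with 7 and set B with 9 libraries, each holding all 3 groups. Microglial markers were high in each group (10 of 10 listed, summed RPKM 4946 to 9897). Border macrophage markers (6 of 6 listed) summed to 2.48 to 5.97 RPKM in WT, 1.74 to 6.88 in TG Me-X04- and 2.76 to 20.8 in TG Me-X04+. Endothelial markers (4 of 8 listed) summed to 2.55 to 13.8 RPKM in WT, 2.00 to 3.01 in TG Me-X04- and 1.32 to 8.49 in TG Me-X04+. Astrocyte markers (4 of 7 listed) summed to 15.1 to 29.4 RPKM in WT, 13.2 to 25.5 in TG Me-X04- and 9.7 to 19.3 in TG Me-X04+. Between the TG populations 1 microglial marker was DE, the homeostatic gene Tmem119, which was lower in TG Me-X04+ (log2FC -1.58, limma adjusted p = 0.0082). The 1 endothelial marker DE there, the Vegf receptor Flt1, was higher (log2FC 3.55, limma adjusted p = 0.0061). Against WT, Flt1 (log2FC 5.87) and the microglial marker C1qb (1.02) were DE and higher in TG Me-X04+. DE and lower were the endothelial marker Pecam1 (-4.83, limma adjusted p = 0.0036), Tmem119 (-1.55), the microglial P2ry12 (-0.97), the monocyte marker Ccr2 (-1.57) and the neuronal Snap25 (-3.19). The part of these differences in the results that follow was not tested.

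In TG Me-X04+ microglia Hif1a, the prolyl hydroxylase Egln3 and 6 enzymes of glycolysis were expressed at a higher level than in TG Me-X04- microglia. Hif1a was 3.75-fold higher, Egln3 13.3-fold higher, and Aldoa, Tpi1, Pgk1, Eno1, Pkm and Ldha between 2.02-fold and 3.52-fold higher. In TG Me-X04- microglia none of the members was differentially expressed (DE) against WT, where only 0.201% of all genes were. A gene was called DE with an adjusted p under 0.05 and a log2FC of at least 0.7 in either direction, by limma with Benjamini-Hochberg adjustment over all 17951 genes. In bulk samples a higher level in each cell and a larger share of high-expressing cells cannot be told apart.

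In the comparison of the TG populations 8 of the 35 members were DE and all 8 were higher in TG Me-X04+, which is 22.9% of the members. Over all genes 5.49% were DE, 3.44% in the higher direction. The members were chosen with earlier results of these data known, and their share was not tested against that of all genes. Among genes with a mean of at least 2 on the log2 scale, a class that holds 20 of the members, 8.79% were DE and 6 of those 20 members were. The median log2FC was 0.39 over the members and -0.09 over all genes. Every TG Me-X04+ library lay above every TG Me-X04- library in 8 of the 35 members, the same 8, and in 4.8% of all genes. Of the 617 genes called higher over all genes 547 had this order, so it is no separate support for the calls. Without TG Me-X04- replicate 5, the TG library with no dye-positive library of the same number, the count of DE members was 5, with Pgk1, Eno1 and Pkm lost. Over all genes the DE count fell from 986 to 552 in that fit. Without any other single library 6 to 9 members were DE, and 624 to 1100 of all genes.

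**Figure D1:**
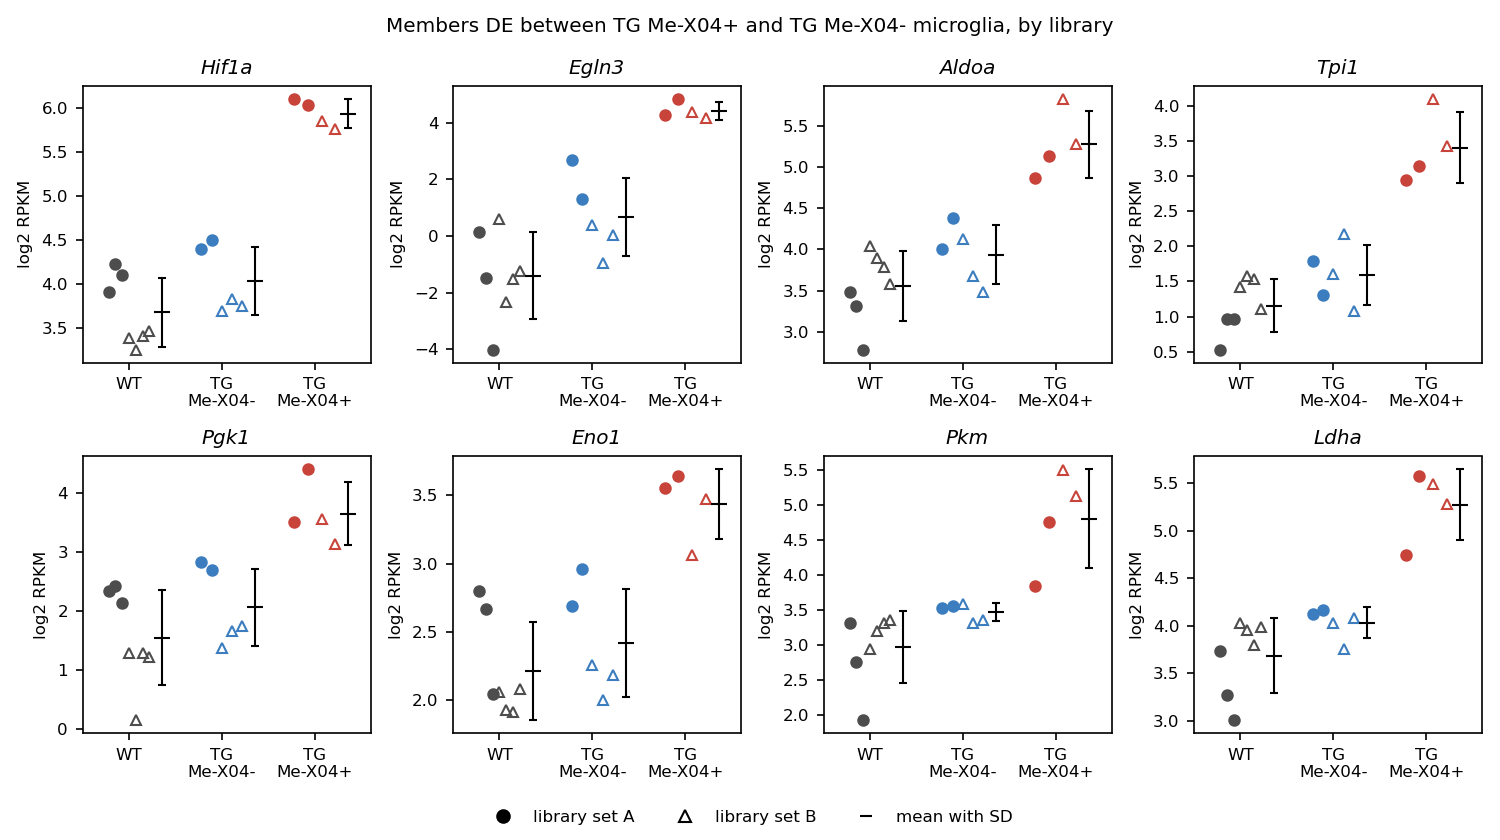
Log2 RPKM (vertical axis) of the 8 members DE between the TG populations, 1 point per library, with filled circles for set A, open triangles for set B, and bars for the mean with SD (WT n = 7, TG Me-X04- n = 5, TG Me-X04+ n = 4). In each panel the 4 TG Me-X04+ libraries lie above all 5 TG Me-X04- libraries, and Hif1a reaches 5.76 to 6.11 against 3.69 to 4.50.

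Among the HIF regulators, Hif1a encodes the oxygen-regulated alpha subunit. Its level was 3.25 to 4.23 log2 RPKM in WT with a median of 3.47. The TG Me-X04- libraries had 4.39, 4.50, 3.69, 3.83 and 3.74 log2 RPKM, and the TG Me-X04+ libraries had 6.11, 6.04, 5.85 and 5.76. The TG Me-X04+ values stood clear of both other groups, which overlapped each other when the library sets were pooled. The log2FC between the TG populations was 1.91 (SE 0.24, limma adjusted p = 0.00030). Set A alone gave a difference of 1.62 and set B alone 2.05. Between TG Me-X04- and WT the Hif1a log2FC was 0.36 (95% CI -0.09 to 0.81), which did not pass the test. Set A gave 0.37 and set B 0.38, and TG Me-X04- and WT did not overlap within either.

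Egln3 encodes a prolyl hydroxylase that is itself a HIF target. In WT its level was -4.03 to 0.60 log2 RPKM with a median of -1.50, from 1 to 90 reads a library. The TG Me-X04- libraries had 2.69, 1.29, 0.39, -0.97 and 0.02 log2 RPKM, and the TG Me-X04+ libraries had 4.27, 4.86, 4.38 and 4.18. The gene was low in WT and above Egln1 in every TG Me-X04+ library, with TG Me-X04- between them and overlapping WT. The log2FC was 3.74 (SE 0.80, limma adjusted p = 0.011) between the TG populations and 5.84 (SE 0.75, limma adjusted p = 4.9e-05) between TG Me-X04+ and WT. Between TG Me-X04- and WT it was 2.10 (95% CI 0.61 to 3.58, limma adjusted p = 0.58).

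The shares of the prolyl hydroxylases differed between the groups. Of the summed RPKM of Egln1, Egln2 and Egln3, Egln3 made up 0.498% to 11.2% in WT, 4.77% to 28.2% in TG Me-X04- and 48.8% to 55.1% in TG Me-X04+. Egln1, the main oxygen sensor of the family, was DE between TG Me-X04+ and WT, with a log2FC of 0.86 (SE 0.28, limma adjusted p = 0.047). Its WT libraries lay between 2.73 and 3.29 log2 RPKM with a median of 3.16, TG Me-X04- had 3.65, 4.08, 2.99, 2.25 and 3.25, and TG Me-X04+ had 3.91, 4.29, 4.18 and 3.41. Every TG Me-X04+ library was above every WT library, but TG Me-X04- overlapped both groups. This call was lost on leaving out any of 13 of the 16 libraries in turn. Egln2, which differed by -0.39 (95% CI -1.15 to 0.37) between the TG populations, was not DE in any comparison.

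Arnt, the constant partner, had 2.93 to 3.93 log2 RPKM in WT with a median of 3.61. TG Me-X04- libraries had 3.23, 2.86, 3.43, 3.48 and 3.59, and TG Me-X04+ libraries had 2.78, 2.27, 2.27 and 3.70. It was lower in TG Me-X04+ than in WT by the test, with a log2FC of -0.82 (SE 0.27, limma adjusted p = 0.049), although TG Me-X04+ replicate 4 lay inside the WT range. This call was lost on leaving out any of 13 of the 16 libraries in turn, and was also lost when the replicate number or the animal entered as a block. Between the TG populations its log2FC was -0.56 (limma adjusted p = 0.32).

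Epas1, the alternative alpha subunit best known from endothelium, was low and uneven. Its libraries ranged from -5.79 to 0.29 log2 RPKM in WT with a median of -2.41, from 0 to 106 reads. The TG Me-X04- libraries had -2.09, -2.73, -2.30, -1.28 and -5.28, from 1 to 53 reads, and the TG Me-X04+ libraries had -3.27, -3.87, -4.55 and -5.26, from 1 to 6 reads each. Hif1a made up at least 93.9% of the summed RPKM of both alpha subunits in every library. The Vhl ligase subunit and the inhibitor Hif1an had log2FCs of -0.11 (95% CI -0.67 to 0.45) and 0.18 (95% CI -0.39 to 0.76) between the TG populations, and neither was DE in any comparison.

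HIF binds the letters ACGTG or GCGTG. The RefSeq promoter windows of 5 members that were higher in TG Me-X04+ are printed with that of Ldhb, a glycolytic enzyme with a log2FC near 0, so that the sequences can be read beside the responses. Each window runs 5′ to 3′ on the gene's strand from 250 bases before a RefSeq transcription start to 50 after it (build GRCm38.p6), and capitals mark ACGTG or GCGTG on either strand. Where a gene has several windows the one with the most matches is shown.
Hif1a, chr12:73907617-73907916, plus strand: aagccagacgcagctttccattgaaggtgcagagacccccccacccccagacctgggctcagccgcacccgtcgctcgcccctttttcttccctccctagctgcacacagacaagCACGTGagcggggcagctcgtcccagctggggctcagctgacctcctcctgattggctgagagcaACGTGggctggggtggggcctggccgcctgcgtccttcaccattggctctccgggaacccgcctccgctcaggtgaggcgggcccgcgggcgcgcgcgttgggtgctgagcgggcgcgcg
Egln3, chr12:54203825-54204124, minus strand: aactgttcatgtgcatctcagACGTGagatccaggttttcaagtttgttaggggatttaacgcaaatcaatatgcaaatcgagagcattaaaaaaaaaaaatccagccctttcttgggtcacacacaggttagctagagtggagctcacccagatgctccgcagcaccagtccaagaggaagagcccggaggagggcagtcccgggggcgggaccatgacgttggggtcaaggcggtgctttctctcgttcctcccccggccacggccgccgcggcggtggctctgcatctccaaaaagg
Ldha, chr7:46845554-46845853, plus strand: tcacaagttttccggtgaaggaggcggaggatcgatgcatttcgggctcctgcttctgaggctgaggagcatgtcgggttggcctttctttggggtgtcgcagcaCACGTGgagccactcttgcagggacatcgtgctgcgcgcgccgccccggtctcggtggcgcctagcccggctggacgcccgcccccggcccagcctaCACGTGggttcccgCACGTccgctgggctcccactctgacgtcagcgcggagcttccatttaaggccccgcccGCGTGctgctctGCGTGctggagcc
Ldhb, chr6:142507908-142508207, minus strand: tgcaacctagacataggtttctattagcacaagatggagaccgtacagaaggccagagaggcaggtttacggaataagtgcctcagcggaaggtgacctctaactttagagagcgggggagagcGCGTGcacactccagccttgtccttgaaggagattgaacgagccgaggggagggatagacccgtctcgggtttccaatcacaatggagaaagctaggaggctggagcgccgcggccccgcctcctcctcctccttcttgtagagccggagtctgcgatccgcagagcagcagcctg
Pgk1, chrX:106186850-106187149, plus strand: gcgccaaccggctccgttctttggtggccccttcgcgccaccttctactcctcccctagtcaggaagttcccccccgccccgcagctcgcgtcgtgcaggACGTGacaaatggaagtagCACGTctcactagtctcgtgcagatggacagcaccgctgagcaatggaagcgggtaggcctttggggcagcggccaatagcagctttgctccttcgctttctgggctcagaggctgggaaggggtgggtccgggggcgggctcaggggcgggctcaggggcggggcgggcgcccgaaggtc
Tpi1, chr6:124814109-124814408, minus strand: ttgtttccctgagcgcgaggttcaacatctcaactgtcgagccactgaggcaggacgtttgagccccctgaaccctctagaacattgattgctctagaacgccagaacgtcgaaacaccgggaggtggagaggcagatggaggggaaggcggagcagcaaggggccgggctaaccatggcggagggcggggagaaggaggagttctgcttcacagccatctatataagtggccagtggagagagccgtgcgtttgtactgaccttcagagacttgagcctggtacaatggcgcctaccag

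The Ldha window held 7 match starts, Hif1a 3, Pgk1 2, Egln3 and Ldhb 1 each, and Tpi1 0, where a palindrome read on both strands counts at 2 overlapping starts. For the printed Ldha, Hif1a and Egln3 windows the bases after the start were not found in a GENCODE transcript of the gene. Another Ldha window, whose bases were found, held 2. Over all 32851 windows of the same length 43.8% held at least 1 of the motifs, 19.6% held ACGTG and 32.4% GCGTG. RefSeq windows were matched for 33 members, Ero1l through its current symbol Ero1a, and for Epas1 and Bnip3l none was matched. At least 1 motif was found in 7 of the 8 members that were DE between the TG populations and in 22 of the 25 other matched members, counted over all windows of a gene, where 46.7% of all genes held one. Tpi1 was the DE member with none, and Ldhb held the letters without being DE. A match is a description of the letters and does not show binding.

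Of the 17 glycolytic enzymes 6 were DE between the TG populations, all 6 higher in TG Me-X04+, and 11 did not pass the test. Their median log2FC was 0.88. The DE enzymes lay in the lower part of the pathway, from the splitting of fructose bisphosphate to lactate. Among the hexokinases and phosphofructokinases, which commit glucose to the pathway, none of the 6 members was DE in this comparison.

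**Figure D2:**
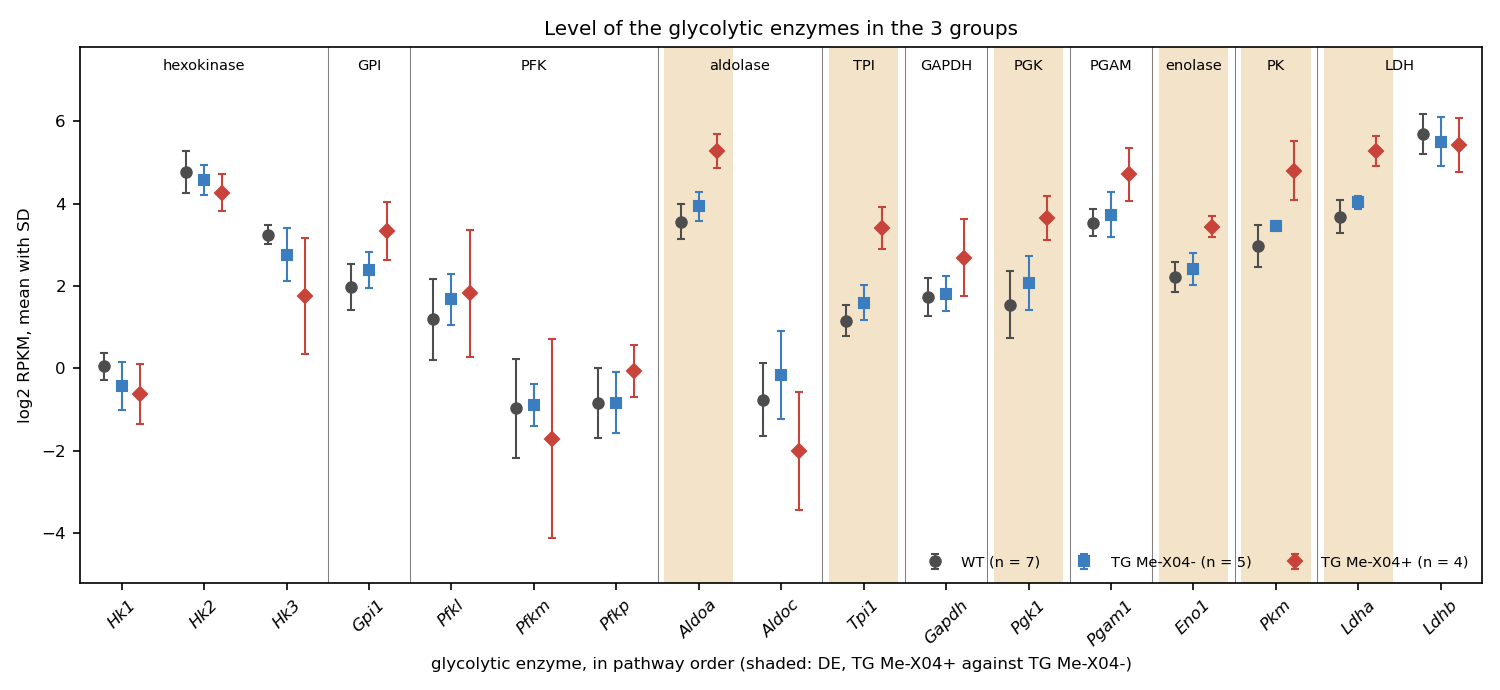
Mean log2 RPKM with SD (vertical axis) of the 17 glycolytic enzymes in pathway order (horizontal axis), for WT (circles), TG Me-X04- (squares) and TG Me-X04+ (diamonds), with the enzymes DE between the TG populations shaded. The TG Me-X04+ means of Aldoa, Tpi1, Pgk1, Eno1, Pkm and Ldha stand above the other groups by 1.02 or more over TG Me-X04-, while the 3 means of Ldhb lie between 5.42 and 5.68.

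Hexokinase phosphorylates incoming glucose. Hk2, the inducible isoform, was the best expressed of the 3 and made up at least 61.5% of their summed RPKM over all libraries. Its level was 4.77 ± 0.51 log2 RPKM in WT (SD, n = 7), 4.57 ± 0.37 in TG Me-X04- (n = 5) and 4.26 ± 0.45 in TG Me-X04+ (n = 4), and it was not DE by the main test. Within each library set Hk2 was lower in TG Me-X04+ than in WT without overlap (-0.70 in set A, -0.46 in set B). Between the TG populations it differed by -0.27 in set A, with overlap, and by -0.46 in set B, without overlap. Quantile normalization or blocking by replicate number made Hk2 DE against WT, and no other alternative did. Hk3, the isoform of myeloid cells, lay between 2.93 and 3.54 log2 RPKM in WT with a median of 3.28. Its TG Me-X04- libraries had 2.45, 1.81, 3.38, 3.28 and 2.87, and its TG Me-X04+ libraries had 0.92, 0.22, 2.83 and 3.08. The 2 low values were both of set A, and the set B libraries lay near WT. The log2FC against WT was -1.48 (SE 0.45, limma adjusted p = 0.035), a call that was lost on leaving out any of 7 libraries in turn. Hk1, the housekeeping isoform, stood at 0.05 ± 0.33 in WT and was not DE.

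Gpi1 interconverts glucose and fructose phosphates. Of its transcript words of 50 bases 15.8% also occur in transcripts of other genes, 122 in all. Its WT range was 1.06 to 2.54 log2 RPKM with a median of 2.26, TG Me-X04- had 1.96, 1.90, 2.85, 2.73 and 2.54, and TG Me-X04+ had 2.45, 3.06, 3.94 and 3.85. The library sets were displaced from each other and the groups overlapped across sets, but within each set both TG Me-X04+ libraries were above all TG Me-X04- libraries. The log2FC was 1.35 (SE 0.34, limma adjusted p = 0.013) against WT and 0.93 (limma adjusted p = 0.17) against TG Me-X04-, and with the library set as a term the latter passed the test. The sets were drawn from the spread within groups of these same values. That term raised the DE genes between the TG populations from 986 to 2142 over all genes. A pass with it, here or below, is therefore no separate support for a member. The phosphofructokinases Pfkl, Pfkm and Pfkp, which carry the committed step, had log2FCs of 0.15, -0.82 and 0.77 between the TG populations with standard errors of 0.65, 0.91 and 0.55. Pfkp was higher in TG Me-X04+ without overlap in both sets, by 0.57 in set A and 0.72 in set B, while Pfkl differed by -0.54 in set A and 1.03 in set B. A change of the size seen in Aldoa was inside each of their confidence intervals except that of Pfkm.

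Aldoa, the main aldolase, had 2.78 to 4.05 log2 RPKM in WT with a median of 3.58. The TG Me-X04- libraries had 4.01, 4.38, 4.13, 3.68 and 3.48, and the TG Me-X04+ libraries had 4.87, 5.13, 5.84 and 5.28. WT and TG Me-X04- overlapped while TG Me-X04+ lay above both. The log2FC between the TG populations was 1.35 (SE 0.27, limma adjusted p = 0.0071).

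Tpi1 interconverts the triose phosphates released by aldolase. Its WT range was 0.52 to 1.57 log2 RPKM with a median of 1.10. The TG Me-X04- libraries had 1.80, 1.31, 1.61, 2.18 and 1.07 and the TG Me-X04+ libraries 2.95, 3.15, 4.11 and 3.43. No TG Me-X04+ library fell into the range of another group. The log2FC of 1.81 (SE 0.31, limma adjusted p = 0.0024) was the largest of the 17 enzymes.

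Gapdh oxidises the triose phosphate and is widely used as a reference gene. Its level was low for this enzyme, at 1.73 ± 0.46 log2 RPKM in WT (SD, n = 7), 1.81 ± 0.43 in TG Me-X04- (n = 5) and 2.69 ± 0.94 in TG Me-X04+ (n = 4). Of its transcript words of 50 bases 25.1% also occur in transcripts of other genes, 223 in all, so that reads from the gene could have been dropped or shared in counting. The log2FC was 0.88 (95% CI 0.04 to 1.72, limma adjusted p = 0.24) between the TG populations. Set A gave 0.54 and set B 1.36, without overlap in either, and with the library set as a term Gapdh passed the test.

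Pgk1 makes the first ATP of the pathway. Its WT range was 0.14 to 2.42 log2 RPKM with a median of 1.29, TG Me-X04- had 2.83, 2.69, 1.38, 1.67 and 1.75, and TG Me-X04+ had 3.52, 4.41, 3.56 and 3.13. The TG populations did not overlap, and within TG Me-X04- both set A libraries lay above those of set B. The log2FC was 1.59 (SE 0.45, limma adjusted p = 0.046), and this call was lost on leaving out any of 9 libraries in turn. It was also lost without a variance trend, with median centring, with quantile normalization, with scaling by non-mitochondrial reads and with only the TG groups fitted. Of the Pgk1 words 53.9% are shared with 5 other genes, nearly all with the retrogene Pgk1-rs7, so its level is uncertain. Pgam1, the next enzyme, had 3.15 to 4.10 log2 RPKM in WT with a median of 3.60, 4.03, 4.39, 3.82, 3.39 and 2.99 in TG Me-X04- and 4.54, 5.67, 4.24 and 4.41 in TG Me-X04+. It was DE against WT (log2FC 1.17, SE 0.30, limma adjusted p = 0.012) and missed the threshold against TG Me-X04- (log2FC 0.99, limma adjusted p = 0.083), where 1 TG Me-X04+ library overlapped with TG Me-X04- across the sets. Within the sets the groups did not overlap (a difference of 0.89 for set A, 0.92 for set B), and Pgam1 passed the test with the library set as a term. Of its words 36.2% are shared, mostly with a pseudogene.

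Eno1, the enolase of most tissues, had 1.91 to 2.80 log2 RPKM in WT with a median of 2.06. TG Me-X04- had 2.69, 2.96, 2.25, 2.00 and 2.18, and TG Me-X04+ had 3.56, 3.64, 3.06 and 3.48. The lowest TG Me-X04+ library lay 0.10 above the highest TG Me-X04- library, the narrowest gap of the 8 DE members. The log2FC was 1.02 (SE 0.26, limma adjusted p = 0.030), lost on leaving out any of 6 libraries in turn. Median centring, quantile normalization, scaling by non-mitochondrial reads and a fit of only the TG groups also lost the Eno1 call. Its near-identical retrogene Eno1b, which shares 1395 of its words of 50 bases, moved in parallel with a log2FC of 1.07 (SE 0.23, limma adjusted p = 0.010), and reads of the pair cannot be assigned with certainty.

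Pkm encodes pyruvate kinase, the last step before pyruvate. Its WT range was 1.92 to 3.35 log2 RPKM with a median of 3.19. The TG Me-X04- libraries lay close together at 3.53, 3.56, 3.57, 3.31 and 3.35, and the TG Me-X04+ libraries had 3.84, 4.75, 5.49 and 5.12. TG Me-X04+ replicate 1 was thus near TG Me-X04- while the other 3 stood well above it. The log2FC was 1.34 (SE 0.32, limma adjusted p = 0.021). The call was lost on blocking by replicate number, with quantile normalization and with scaling by non-mitochondrial reads. It was also lost on leaving out any of 3 libraries in turn. The 2 main isoforms of Pkm, which differ in 1 exon, were not separated by these gene-level values. Of the Pkm words of 50 bases 25.8% are shared with 8 other genes, so its level is uncertain.

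Ldha encodes the muscle-type subunit of lactate dehydrogenase, which favours lactate production, and Ldhb the heart-type subunit. Ldha had 3.00 to 4.03 log2 RPKM in WT with a median of 3.80, 4.13, 4.17, 4.03, 3.75 and 4.08 in TG Me-X04-, and 4.75, 5.58, 5.50 and 5.28 in TG Me-X04+. TG Me-X04+ lay above both groups with a log2FC of 1.25 over TG Me-X04- (SE 0.24, limma adjusted p = 0.0050). Ldhb had the highest mean of the 35 members over all libraries, although in TG Me-X04+ the mean of Hif1a was higher (5.94 against 5.42). It had 5.18 to 6.47 log2 RPKM in WT with a median of 5.39, 6.02, 6.23, 5.38, 4.95 and 4.95 in TG Me-X04-, and 5.44, 6.35, 4.87 and 5.04 in TG Me-X04+. Its 3 groups overlapped fully, with a log2FC of -0.08 (95% CI -0.83 to 0.67) between the TG populations. Shared words of 50 bases made up 21.0% for Ldhb, with 1 other gene, and 9.26% for Ldha, with 328, so the level of each is uncertain.

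The balance of such pairs within a library does not depend on the scaling between libraries. Ldha minus Ldhb, as a difference of log2 RPKM, was -3.06 to -1.19 in WT with a median of -1.58. It was -1.90, -2.06, -1.35, -1.19 and -0.87 in TG Me-X04-, and -0.69, -0.77, 0.63 and 0.24 in TG Me-X04+. In set B the TG Me-X04+ libraries were the only ones with more Ldha than Ldhb, while in set A Ldhb remained the higher in each group. The mean difference was 1.33 higher in the dye-positive than in the dye-negative cells. Ldha made up 21.3% ± 8.5 of the summed RPKM of both in WT (SD, n = 7), 26.9% ± 6.6 in TG Me-X04- (n = 5) and 47.5% ± 11.8 in TG Me-X04+ (n = 4). The 4 pairs compared in this way were chosen after their values had been seen, so the values are a description with no test.

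The aldolase difference changed in the same direction, but Aldoa was the main isoform in every group. It made up 94.7% ± 3.1 of the summed RPKM of both in WT (SD, n = 7). Its share was 93.9% ± 3.4 in TG Me-X04- (n = 5) and 99.1% ± 0.8 in TG Me-X04+ (n = 4). Aldoc, an isoform enriched in astrocytes, had 2 to 181 reads a library, and its log2FC of -1.86 (95% CI -3.36 to -0.36, limma adjusted p = 0.15) did not pass the test. Aldoa minus Aldoc was 2.89 to 5.50 in WT with a median of 4.41, 3.86, 2.89, 4.41, 4.67 and 4.62 in TG Me-X04-, and 8.60, 5.68, 8.45 and 6.45 in TG Me-X04+. All 4 TG Me-X04+ libraries lay above the other groups, with a mean 3.20 above that of TG Me-X04-. Egln3 minus Egln1 was -7.33 to -2.14 in WT with a median of -4.68, -0.96, -2.78, -2.60, -3.22 and -3.23 in TG Me-X04-, and 0.36, 0.57, 0.21 and 0.77 in TG Me-X04+. Its change between the TG populations was 3.04. For Hk2 minus Hk3 the change was 0.68, and the groups overlapped.

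**Figure D3:**
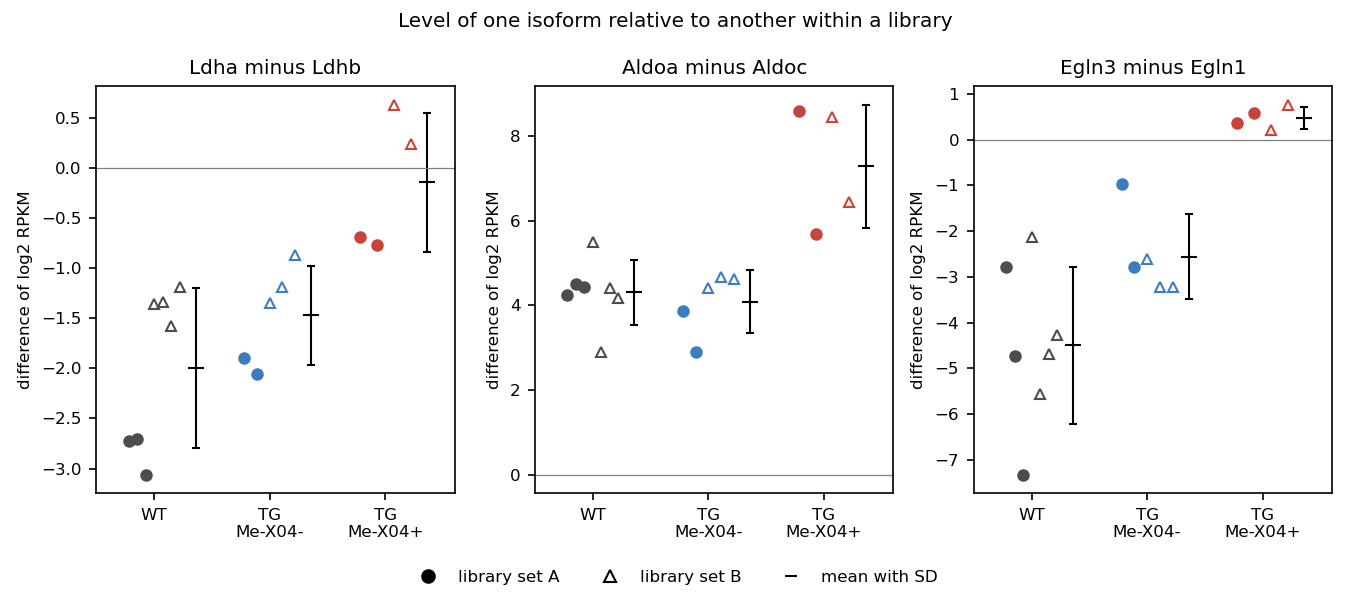
Difference of log2 RPKM between paired isoforms within a library (vertical axis) for Ldha minus Ldhb, Aldoa minus Aldoc and Egln3 minus Egln1, 1 point per library, with filled circles for set A, open triangles for set B, bars for the mean with SD, and a line at 0 for equal levels. The TG Me-X04+ libraries lie above all others in each panel, from 0.21 to 0.77 for Egln3 minus Egln1.

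Of the 3 glycolysis regulators none was DE between the TG populations. Pfkfb3 makes fructose 2,6-bisphosphate, the activator of phosphofructokinase. It had 1.88 to 3.35 log2 RPKM in WT with a median of 3.20, 3.40, 3.69, 3.58, 3.66 and 3.75 in TG Me-X04-, and 3.93, 3.71, 4.16 and 4.21 in TG Me-X04+. All TG libraries lay above all WT libraries. With the library sets pooled it was the only member for which TG Me-X04- and WT did not overlap, an order seen in 0.652% of all genes. Within each set Hif1a, Gpi1 and Pgk1 also had TG Me-X04- above WT without overlap. The share of all genes with this order within each set was not counted. The log2FC was 1.01 (SE 0.25, limma adjusted p = 0.0098) between TG Me-X04+ and WT, 0.63 (limma adjusted p = 0.71) between TG Me-X04- and WT and 0.39 (limma adjusted p = 0.49) between the TG populations. Pdk1, which blocks entry of pyruvate into mitochondria, had a mean of 3.36 in WT against 3.31 in TG Me-X04-, and of 3.62 in TG Me-X04+, and was not DE. Pfkfb4, an isoform of Pfkfb3, ranged from -2.95 to 2.54 log2 RPKM over all libraries and was not DE.

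Of the 7 other hypoxia targets none was DE between the TG populations, and their median log2FC was 0.68. Mif, a cytokine with hypoxia-responsive transcription, was DE against WT. It had -1.77 to 3.44 log2 RPKM in WT with a median of 2.03, 1.54, 2.51, 3.44, 2.90 and 2.24 in TG Me-X04-, and 3.30, 4.33, 5.13 and 5.30 in TG Me-X04+. The ranges of neighbouring groups overlapped, and the lowest WT value came from 1 read. Its log2FC was 2.86 (SE 0.74, limma adjusted p = 0.014) against WT and 1.99 (SE 0.79, limma adjusted p = 0.17) against TG Me-X04-. Of the Mif words 50.9% are shared with other genes, so its level is uncertain.

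Vegfa, the vascular growth factor, was among the lowest members, with 5 to 111 reads a library. It had -2.62 to -1.47 log2 RPKM in WT with a median of -2.02, -2.01, -1.90, -3.95, -1.17 and -2.88 in TG Me-X04-, and -2.10, 0.27, 0.20 and -0.26 in TG Me-X04+. TG Me-X04+ replicate 1 lay with the other groups while the other 3 lay above them. The log2FC was 1.91 (95% CI 0.62 to 3.20, limma adjusted p = 0.081), and it passed the test with limma voom on the recovered reads, with quantile normalization, with the animal as a random effect and with the library set as a term. Bnip3l, a receptor for mitophagy and by a narrow margin over P4ha1 the best expressed of these targets over all libraries, had 4.22 to 4.89 log2 RPKM in WT with a median of 4.42, 4.62, 5.03, 4.07, 4.07 and 4.49 in TG Me-X04-, and 4.97, 5.23, 4.50 and 4.41 in TG Me-X04+. Its groups overlapped, with a log2FC of 0.32 (95% CI -0.18 to 0.82). P4ha1, a collagen prolyl hydroxylase and a regular HIF target, had a log2FC of 0.01 (95% CI -0.38 to 0.40), the narrowest interval of the 35 members. Bnip3, Ero1l and Ankrd37 had log2FCs of 1.01, 0.68 and -0.39 (limma adjusted p = 0.18, 0.25 and 0.80). Of the Bnip3 words of 50 bases 47.2% are shared with 6 other genes.

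The 3 groups in a row give a first step, from WT to TG Me-X04-, and a second step, from the dye-negative to the dye-positive cells, and both use the TG Me-X04- libraries. In the first step 0 of the 35 members were DE by limma, where 0.201% of all genes were. Unadjusted p-values were under 0.05 for 2 members, Egln3 and Pfkfb3, and for 929 of all 17951 genes. By limma voom on the recovered reads the count of DE members was also 0. The median log2FC of the members was 0.09 in the first step, against 0.01 over all genes. The difference between the steps was tested directly, and 0 members passed it by limma, with 6 under 0.05 unadjusted, and 0 by voom. Hif1a had the smallest p of them, with a second step 1.55 larger than the first (95% CI 0.71 to 2.39, unadjusted p = 0.0011, limma adjusted p = 0.48), and it passed with array weights (adjusted p = 0.035) and with the library set as a term (adjusted p = 0.0091). Of all 17951 genes 0 passed this test by limma and 956 had an unadjusted p under 0.05. Over all genes 38 passed it with array weights and 52 with the library set as a term.

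**Figure D4:**
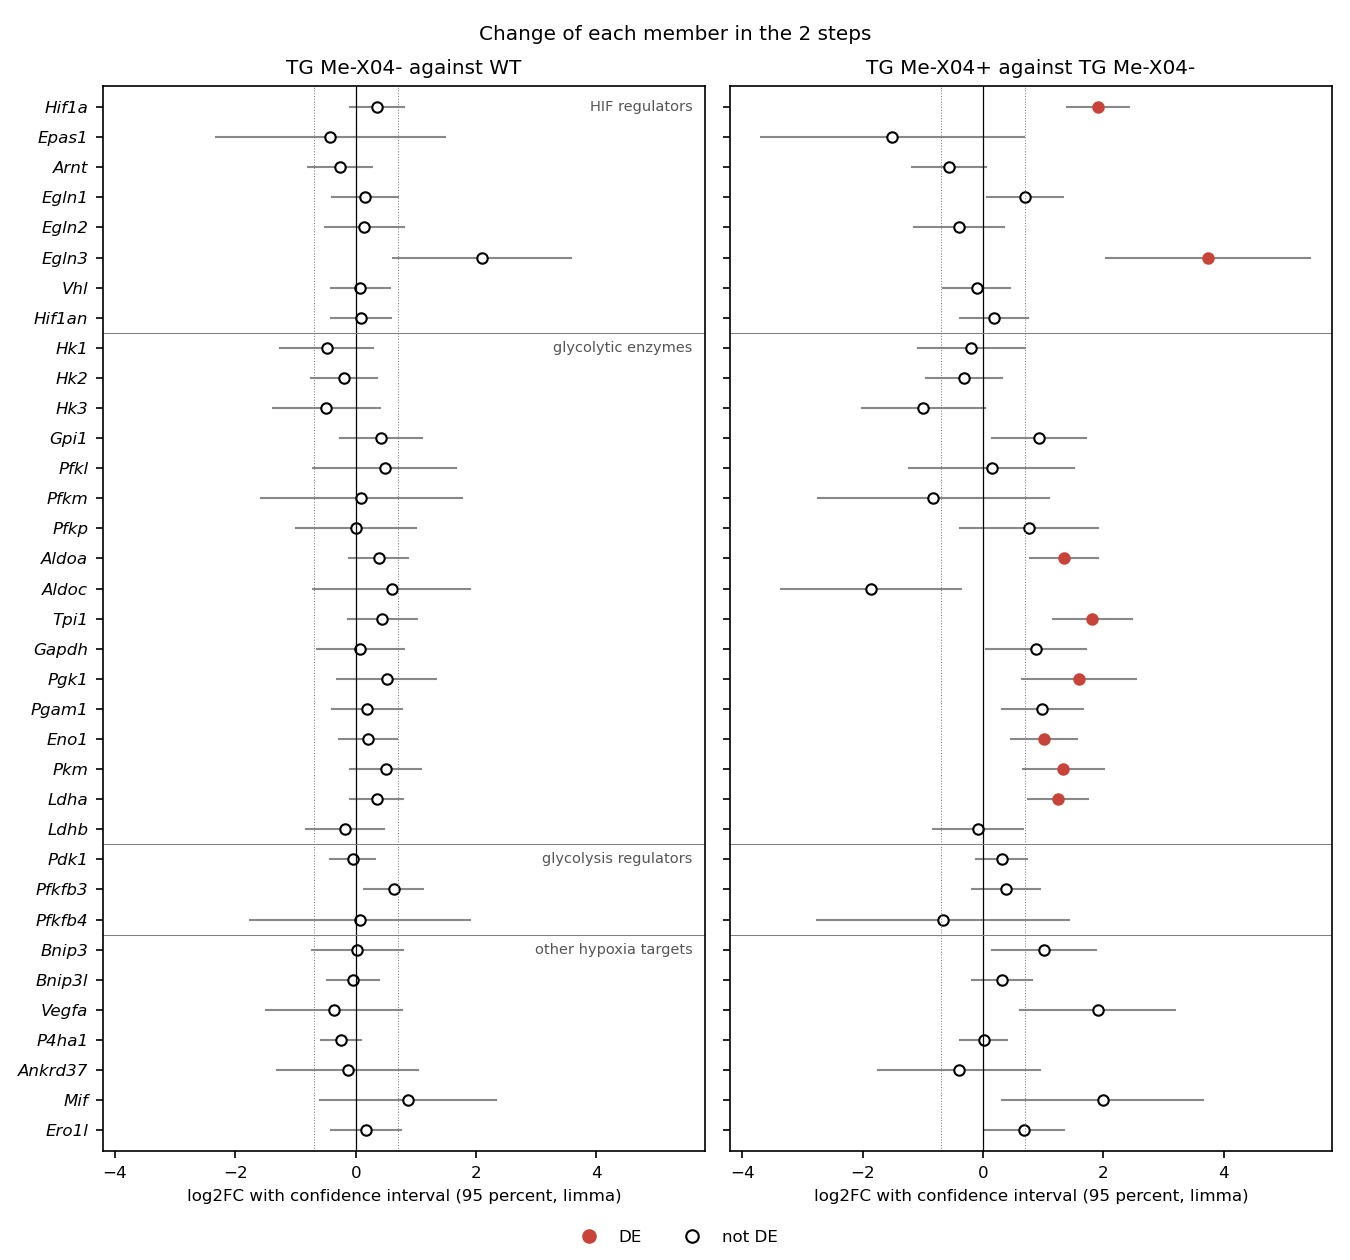
Log2FC with 95% CI (horizontal axis) of the 35 members (rows, grouped by role) for TG Me-X04- against WT and for TG Me-X04+ against TG Me-X04-, with DE members filled and dotted lines at the fold threshold of 0.7. No member is filled in the first panel and 8 are filled in the second, all on the positive side.

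Between TG Me-X04+ and WT 15 of the 35 members were DE, 13 higher and 2 lower, where 14.3% of all genes were, 8.25% higher and 6.02% lower. The higher ones were Hif1a, Egln1, Egln3, Gpi1, Aldoa, Tpi1, Pgk1, Pgam1, Eno1, Pkm, Ldha, Pfkfb3 and Mif, and the lower ones Arnt and Hk3. Hif1a was 4.80-fold higher than in WT (log2FC 2.26, SE 0.23, limma adjusted p = 5.2e-06), Tpi1 4.77-fold (log2FC 2.25, limma adjusted p = 5.1e-05), Pkm 3.57-fold (log2FC 1.83, limma adjusted p = 0.00040) and Ldha 3.01-fold (log2FC 1.59, limma adjusted p = 0.00010). All 15 had the same direction in both library sets, among them Arnt, Hk3, Gpi1 and Mif, whose groups overlapped with the sets pooled. The 15 were called on the pooled sets, so the shared direction is no separate support for the calls. This comparison shares its libraries with the other two and is no independent support for them.

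Further genes of the pathway came from a longer list, of which 83 of 100 genes were in the table. Between the TG populations 8 were DE, 6 higher and 2 lower, which is 9.64% of them beside 5.49% of all genes. The counts of the smaller lists that follow stand beside the same share and were not tested against it. All these lists were chosen with earlier results of these data known. Of the HIF system beyond the members 2 of 15 were DE. Arnt2, a paralogue of Arnt, had 0.13 to 2.54 log2 RPKM in TG Me-X04+ against -2.66 to -0.80 in TG Me-X04- and -5.97 to -2.84 in WT, a log2FC of 2.95 (SE 0.68, limma adjusted p = 0.017) between the TG populations. The WT libraries had 0 to 19 Arnt2 reads each. Hif3a, an alpha subunit with isoforms that oppose HIF, had -6.13 to -1.72 log2 RPKM in TG Me-X04+ against -2.11 to 1.03 in TG Me-X04-, a log2FC of -3.73 (SE 0.90, limma adjusted p = 0.021) that rested on 0 to 29 reads a library in TG Me-X04+.

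Of the 10 genes of glucose and lactate transport 2 were DE between the TG populations. Slc2a1, the general glucose transporter, had 2.37 to 3.32 log2 RPKM in WT. It had 4.10, 3.58, 3.49, 3.49 and 2.94 log2 RPKM in the TG Me-X04- libraries. The values of the TG Me-X04+ libraries were 4.62, 4.68, 4.94 and 4.59, so that TG Me-X04+ lay above both groups (log2FC 1.19, SE 0.24, limma adjusted p = 0.0069). Slc2a5, a fructose transporter abundant in homeostatic microglia, was lower, at 3.64, 4.04, 4.57 and 4.69 in TG Me-X04+ and 4.73, 5.19, 5.25, 5.16 and 5.22 in TG Me-X04- (log2FC -0.87, SE 0.22, limma adjusted p = 0.028). The lactate exporter Slc16a3 had a log2FC of 1.40 (limma adjusted p = 0.31), with -2.36 to 0.63 log2 RPKM in WT, -1.44 to 0.79 in TG Me-X04- and 0.02 to 2.58 in TG Me-X04+. Slc2a6, a transporter of the glucose transporter family, was DE against WT (log2FC 3.60, limma adjusted p = 0.0027), with 0 reads in 3 of the WT libraries.

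Of 12 genes that take pyruvate into mitochondrial oxidation and of 8 genes of the pentose phosphate pathway, 0 were DE by limma in any of the 3 comparisons. At an unadjusted p under 0.05 there was 1 of the former between the TG populations, and there were 2 of the latter between TG Me-X04+ and WT. Of all 17951 genes 3363 and 4995 had such a p in these comparisons. Of 15 further glycolytic isoforms and regulators, Eno1b was the 1 DE gene between the TG populations. Against WT, Tigar, which lowers fructose 2,6-bisphosphate, was higher in TG Me-X04+ (limma adjusted p = 0.013), with 2.49 and 2.45 log2 RPKM in the set A libraries and -1.17 and -0.18 in those of set B. WT had -1.60 ± 0.80 (SD, n = 7). Between the TG populations the difference was 2.23 in set A but -1.09 in set B.

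Of 23 further hypoxia targets 3 were DE between the TG populations and 3 between TG Me-X04- and WT, where 0.201% of all genes were. This list was chosen with earlier results of these data known, so its counts are no test against that share. Lox, an oxidase that cross-links collagen, had -4.72 to -2.31 log2 RPKM in WT, -0.40 to 1.49 in TG Me-X04- and 3.06 to 4.53 in TG Me-X04+. It was DE in both steps, with a log2FC of 3.74 (SE 0.45, limma adjusted p = 0.00056) and then of 3.30 (SE 0.51, limma adjusted p = 0.0012). The WT libraries had 2 to 13 Lox reads each, so the size of its first step depends in part on the prior added to the counts. Bhlhe40, a transcriptional repressor, was also DE in both, with log2FCs of 3.80 (SE 0.56, limma adjusted p = 0.0038) and 3.01 (SE 0.64, limma adjusted p = 0.011), from 0 to 9 reads a library in WT. Cxcr4, the receptor of the chemokine Cxcl12, was DE in the first step (log2FC 3.40, SE 0.54, limma adjusted p = 0.0089), from 0 to 3 reads a library in WT, so that the size of its change depends on the prior added to the counts. Plin2, which coats lipid droplets, was DE in the second step (log2FC 1.03, SE 0.29, limma adjusted p = 0.048). Loxl2, a relative of Lox, was lower in TG Me-X04+ than in WT (log2FC -2.07, SE 0.48, limma adjusted p = 0.0064).

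Since mitochondrial reads took a larger share in TG Me-X04+, the values were also scaled by the reads outside mitochondrial genes. This moved the median log2FC of all genes between the TG populations from -0.09 to -0.36 and the DE genes from 617 higher and 369 lower to 308 higher and 680 lower. Under it 5 members were DE, all higher, namely Hif1a, Egln3, Aldoa, Tpi1 and Ldha, while Pgk1 (log2FC 1.32), Eno1 (0.74) and Pkm (1.06) kept their direction without passing the test. The TG samples of the same number were taken to share an animal. With the animal as a random effect 13 members were DE, 12 higher and 1 lower, where 2110 of all 17951 genes were DE against 986 in the main fit. Aldoc was the lower one, and Gpi1, Pgam1, Vegfa and Mif were the further higher ones.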

How the data were processed

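Bulk RNA-seq libraries of sorted microglia were analysed from 1 deposited table. Per the labels and the study's methods, the authors trimmed reads with Trim Galore 0.4.4, aligned them to GRCm38 with STAR 2.5.4b, counted reads per Gencode gene with featureCounts, filtered low genes and normalised with edgeR 3.24.3. Strand use in counting is not given in the sources used here. The deposited values are log2 RPKM scaled by TMM with a prior count of 2 reads at the mean library size. Whole reads were recovered for 100% of values (within 0.01 of a read). The table also holds the authors' own comparisons as log2 fold changes, statistic scores and p-values, which were not used. The number of sample columns outside the series was 0.

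The 3 groups were fitted together on the deposited log2 RPKM with limma 3.58.1 (R 4.3.3; lmFit, then eBayes with a variance trend), with two-sided p-values adjusted by Benjamini-Hochberg across the 17951 genes. The edgeR count test of the study was not run, and limma voom on the recovered reads was run as an alternative. All members were accounted for. Values by library were given for members DE in at least 1 comparison, for Hif1a, Epas1 and Arnt, and for the best expressed member of each role. Further pathway genes were named where DE, at most 8 per comparison by the size of log2FC, with Slc2a1 and Slc16a3. Vegfa was named by library after its values were seen. The members and lists were chosen with earlier results of these data known. The limma fit was tested on simulated data.

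Same-numbered TG libraries were taken as the same animal by their number. What they deviated from their group means correlated over the genes with r from 0.29 to 0.33 in the 4 pairs. The mean for other numbers of the same set was 0.27. WT numbers were taken as other animals. Which libraries were run on which of the sequencers is not given in the sources used here, so the library sets were taken from the data. Genes at few reads have wide intervals, which cover counting error and spread between libraries together. Words of 50 bases were compared between GENCODE M21 transcripts, and promoter windows were taken from RefSeq (GRCm38.p6). Alternatives were other scalings, pseudocounts, filters on low values, variance models, a block, the library set as a term and each library left out.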

Additional observations from a re-analysis of the deposited data

Results flagged for a closer look

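In 6 of the 105 sets of values (35 members in 3 groups) the highest or lowest library stood apart from the rest of its group by Dixon's test, where chance gives about 1 in 20. In WT replicate 3, which had the most genes at 0 reads of the WT libraries, Pkm was 1.92 log2 RPKM against 2.75 to 3.35 in the other WT libraries. In the same library Pfkfb3 was 1.88 against 2.75 to 3.35, and Pfkfb4 was -1.57 against 0.95 to 2.07. Pdk1 was 4.07 in WT replicate 2 against 3.09 to 3.46. Aldoc was 1.01 in WT replicate 5 against -1.66 to -0.59. Egln2 was 0.82 in TG Me-X04+ replicate 1, from 64 reads, against 1.95 to 2.15. None of these 6 genes except Pkm was DE between the TG populations.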

How the results depend on the processing

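The count of members DE between the TG populations was 8 as reported. Quantile normalization gave 5, losing Pgk1, Eno1, Pkm and Ldha and gaining Vegfa, and scaling to the reads of non-mitochondrial genes gave 5. Median centring gave 6, with Pgk1 and Eno1 lost. A fit of only the TG groups gave 7, with these also lost and Mif gained. The count was 13 with the animal as a random effect (a block chosen after seeing the data) and 13 with the library set as a term. Over all genes the animal block called 2110, the set term 2142 and the fit of only the TG groups 470, against 986 in the main fit. Leaving out 1 library in turn gave 5 to 9 members. Hif1a, Egln3, Aldoa and Tpi1 were DE in every alternative that tested them, where a filter at a mean log2 value of 2 left Egln3 and Tpi1 out. Ldha missed the threshold under quantile normalization alone. Blocking by replicate number gave counts of 7 between the TG populations, 0 for TG Me-X04- against WT, and 17 for TG Me-X04+ against WT. The count against WT of 15 ranged from 11 to 16 on leaving out 1 library, and the count of 0 for TG Me-X04- against WT stayed at 0 in every alternative. The test of the difference between the steps called 0 members, but 1, Hif1a, with array weights and 1, Hif1a, with the library set as a term, and 0 on leaving out any library. No log2FC of a DE member changed sign. Where a call was lost the cause was not tested.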
